A study of Mus musculus with 4 samples.

Results

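Aldehyde dehydrogenases, alcohol dehydrogenases, aldo-keto reductases, carboxylesterases, retinol dehydrogenases and the numbered members of the short-chain dehydrogenase/reductase family DHRS were followed from the stem cells to the absorptive cells of the mouse proximal intestine. Members were taken by symbol: every gene whose name begins with Aldh, Adh, Akr, Ces, Rdh or Dhrs followed by a digit and that had a probe set assigned to it alone. This gave 62 of the 12393 genes tested: 17 Aldh, 4 Adh, 14 Akr, 9 Ces, 11 Rdh and 7 Dhrs genes. The RefSeq table of assembly GRCm38.p6 lists 90 genes with such names, and the others, among them Akr1b3, Akr1b7, Akr1c19, Ces2c and Dhrs9, were not analysed here.

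RNA came from C57BL/6 mice aged 4 to 6 weeks and was hybridised to 4 Affymetrix arrays, 1 per sample. The stem group (2 arrays) held Lgr5(hi) cells, collected by flow cytometry, of wild-type genotype. The enterocyte group (2 arrays) held differentiated villus cells, detached with EDTA, of Atoh1 knockout genotype; Atoh1 is the transcription factor that secretory cells need, and its conditional loss in the epithelium was meant to leave enterocytes on the villus. Every sample, also of the wild-type stem group, is labelled with tamoxifen at 1 mg per day for 5 days and a wait of 5 days. The sources used here give neither the driver of the recombination nor the animals behind each sample, and the p-values measure the spread between these samples only. Cell type, genotype and isolation differ together between the groups and cannot be told apart. These are bulk samples, in which fewer cells of a type and less RNA per cell cannot be told apart either.

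These enzymes handle reactive carbonyls, alcohols and esters. Alcohol and retinol dehydrogenases turn alcohols, ethanol and retinol among them, into aldehydes, and aldehyde dehydrogenases oxidise those to acids, so that retinol is passed by way of retinal to retinoic acid. Aldo-keto reductases and several DHRS enzymes run the opposite way and reduce aldehydes and ketones. Carboxylesterases cut ester bonds in drugs and dietary lipids, and the small intestine is known as a site where they meet swallowed compounds before these reach the liver.

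Levels are given as log2 of the deposited normalized intensity, so that a difference of 1 is a 2-fold change, and each difference is enterocyte minus stem. A background level was set at 5.91 (an intensity of 60.0), the 90th percentile of the mean levels of 23 genes of other organs; of those 23 genes, 1 was called higher and 2 lower. For a gene with its mean below this level in 1 group only, the fold is a lower bound ("at least"), with each array of that group that lay below the level raised to it. Calls rest on an adjusted p under 0.05 in limma's moderated test over all 12393 genes, and SE is limma's standard error with 2 arrays per group. As a check of the labels, Lgr5 was 11.33 and 10.96 in the stem and 6.92 and 6.09 in the enterocyte arrays, and Atoh1, whose deleted part is not known here, was 7.43 and 7.71 in the stem and 5.06 and 5.28 in the enterocyte arrays. All 9 measured enterocyte markers were called higher and all 9 stem cell markers lower. Of the lists for other cell types, lymphocyte markers were higher in 10 of 14 cases (summed intensity 660 to 913 in the stem and 8727 to 11772 in the enterocyte arrays; Cd2, Cd8b1, Cd79a and Ms4a1 below background throughout), and tuft cell markers in 5 of 6 (605 to 967 and 3511 to 5305). Goblet markers were lower in 6 of 6 (22805 to 24795 and 495 to 674), enteroendocrine markers in 6 of 10 (9373 to 11597 and 866 to 989) and Paneth markers in 2 of 5 (34467 to 47231 and 678 to 6088). Stroma and endothelium gave no call among 13 markers, 10 of them below background in both groups. The part of these other cell types in the results that follow was not tested.

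Most of the changes of at least 2-fold in these families were increases. In the enterocyte arrays 29 of the 62 genes were called higher (46.8%, against 18.2% of all genes) and 8 lower (12.9%, against 22.4%), while 25 did not pass the threshold; over all genes, 40.6% were called in either direction. By at least 2-fold, taking the log2 differences as fitted, 23 rose (10.8% of all genes did so) and 5 fell (13.6% of all genes). The 23 include Ces1g and Rdh16, whose lower bounds were only 1.59-fold and 1.04-fold. Rises of at least 8-fold were seen in 7 (1.98% of all genes): Rdh9, Dhrs1, Adh4, Aldh1a7, Aldh1a1, Ces2e and Ces1f. The median difference was 0.40, against 0.00 over all genes (range -2.66 to 4.47). In 47 of the 62 the arrays of the groups did not overlap, against 65.3% of all genes. In 15 both groups lay below the background level, in 5 the stem group alone and in 1 the enterocyte group alone. Over all 12393 genes these counts were 4011, 389 and 381.

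The counts depend on both the scaling and the few arrays. Centring each array on the mean level of 9 reference genes, of which 3 were themselves called higher and 1 lower, is called mean centring here. It moved the median of all genes to -0.23 and gave 26 members higher and 11 lower, beside 15.6% and 33% of all genes. The 37 called members kept their direction under it, while Adh7, Akr1c12 and Aldh2 were no longer called. Centring on the median level of the reference genes, called level-median centring, sets different genes against each other, since the median gene was Pgk1 in both stem arrays and Ywhaz in both enterocyte arrays. It moved the median of all genes to -0.78, although the median of the 9 genes' own differences was 0.31, and its counts of 21 members higher and 31 lower stand beside 9.47% and 77.2% of all genes. Taking each reference gene's deviation from its own mean before the median, a choice made after seeing the data, gave 24 members higher and 12 lower, beside 14.4% and 35.8% of all genes, and again no called member changed direction. Without stem replicate 1 or without stem replicate 2, limma called 0 members and 0 genes; at an unadjusted p under 0.05 there were 26 members higher and 10 lower without the former, 26 and 9 without the latter. Without enterocyte replicate 1 there were 9 members higher and 0 lower (9 lower at an unadjusted p under 0.05), and without enterocyte replicate 2 there were 8 and 0 (9 lower at an unadjusted p under 0.05). In each of these fits the spread came from the remaining pair alone, and the single array is assumed to vary like that pair, so they do not show which calls are stable. With every value below background raised to it, 21 members were higher and 8 lower, beside 12.5% and 15.6% of all genes. Adh7, Akr1b8, Akr1c12, Aldh2, Aldh4a1, Ces1g, Ces2a and Rdh16 were then no longer called.

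**Figure D1:**
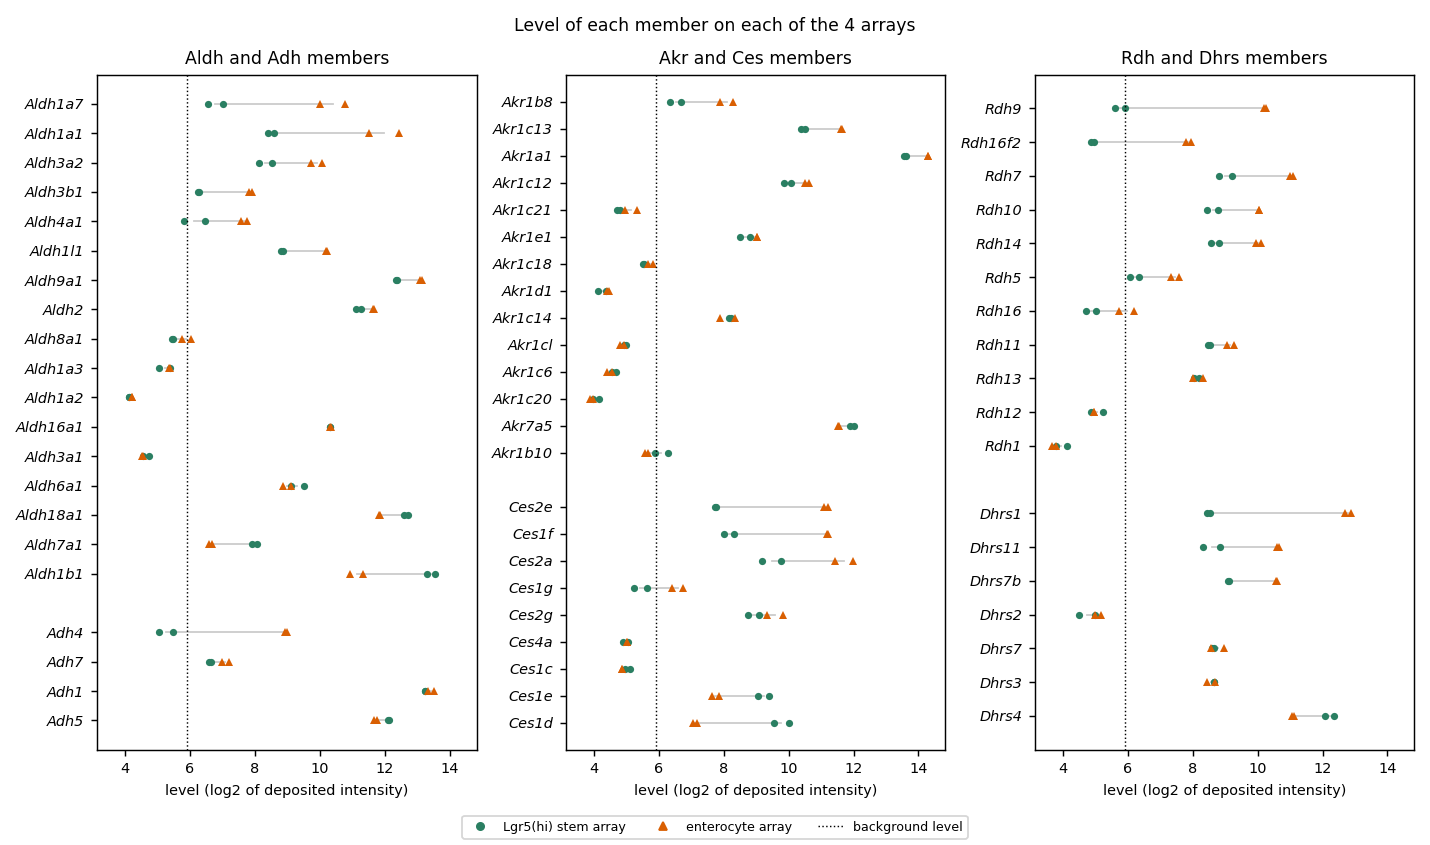
Log2 level of each of the 62 genes (rows, by family, ordered by difference) on each stem array (circles) and enterocyte array (triangles); the grey line joins the group means and the dotted line is the background level of 5.91. Dhrs1, Rdh9, Adh4, Aldh1a1 and Ces2e lie far to the right in the enterocyte arrays, Aldh1b1 and Ces1d far to the left, and Aldh1a2, Rdh1 and Akr1c20 stay left of the background level on every array.

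Retinol dehydrogenases had 8 of 11 higher (72.7%, against 18.2% of all genes), 0 lower (against 22.4%) and a median difference of 1.25. It was 1.02, with 8 higher and 1 lower, under mean centring, and 0.48, with 6 higher and 3 lower, under level-median centring. At an unadjusted p under 0.05 also none was lower in the values as deposited. Rdh9, a mouse enzyme known to oxidise cis-retinols and androgens, was 5.92 and 5.60 in the stem and 10.21 and 10.26 in the enterocyte arrays. Both enterocyte arrays lay far above both stem arrays, and Rdh9 was at least 19.9-fold higher (log2 difference 4.47 ± 0.14 SE, limma adjusted p = 0.00261), the largest difference of any member; its probe set carries the _s_at mark, which says that it may detect related genes. Rdh16f2, a relative of the same subfamily, was 4.94 and 4.86 in the stem and 7.78 and 7.95 in the enterocyte arrays. The stem arrays lay below background, which makes it at least 3.89-fold higher (log2 difference 2.97 ± 0.09 SE, limma adjusted p = 0.00261). Rdh7, a retinol and sterol dehydrogenase, was above background everywhere, 9.21 and 8.81 in the stem and 10.99 and 11.08 in the enterocyte arrays. It rose 4.08-fold (log2 difference 2.03 ± 0.17 SE, limma adjusted p = 0.00651) without overlap.

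Rdh10, the enzyme that makes retinal from retinol in the embryo, was 8.77 and 8.45 in the stem and 10.04 and 10.05 in the enterocyte arrays. It rose 2.70-fold (log2 difference 1.43 ± 0.14 SE, limma adjusted p = 0.00777), and its replicates lay close together in the enterocyte group. Rdh14, which can reduce retinal, was 8.81 and 8.56 in the stem and 9.94 and 10.10 in the enterocyte arrays. It rose 2.53-fold (log2 difference 1.34 ± 0.13 SE, limma adjusted p = 0.00777), though a dimmer probe set, also above background, gave -0.42, not past the threshold. Rdh5, known from the visual cycle, rose 2.38-fold (log2 difference 1.25 ± 0.16 SE, limma adjusted p = 0.0127) and Rdh11, a retinal reductase, 1.58-fold (log2 difference 0.66 ± 0.10 SE, limma adjusted p = 0.0179). Rdh16 was 5.03 and 4.72 in the stem and 6.20 and 5.74 in the enterocyte arrays. Its difference passed the test (log2 difference 1.10 ± 0.22 SE, limma adjusted p = 0.0369), but with the stem arrays raised to background it was at least 1.04-fold higher, so its size is not known. Rdh13, which resides in mitochondria, overlapped between the groups (0.05 ± 0.15 SE). Rdh1 and Rdh12 lay below background in both groups; Rdh1 was the gene called lower under mean centring.

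In the DHRS family 3 of 7 genes were higher (42.9%, against 18.2% of all genes) and 1 lower (14.3%, against 22.4%). The median difference was 0.34. It was 0.11, with 3 higher and 1 lower, under mean centring, and -0.44, with 3 and 3, under level-median centring. Dhrs1, a short-chain reductase of the endoplasmic reticulum, was 8.54 and 8.44 in the stem and 12.69 and 12.87 in the enterocyte arrays. All 4 values were well above background, the groups were far apart, and Dhrs1 rose 19.6-fold (log2 difference 4.29 ± 0.10 SE, limma adjusted p = 0.00261). Dhrs11, a reductase of keto-steroids, was 8.84 and 8.32 in the stem and 10.67 and 10.60 in the enterocyte arrays, a rise of 4.17-fold (log2 difference 2.06 ± 0.21 SE, limma adjusted p = 0.009). Dhrs7b, linked to ether lipid synthesis, was 9.10 and 9.12 in the stem and 10.60 and 10.58 in the enterocyte arrays. The replicates of each group were nearly alike, and it rose 2.79-fold (log2 difference 1.48 ± 0.05 SE, limma adjusted p = 0.00265), while its dimmer probe set lay below background in both groups.

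Dhrs4, a peroxisomal reductase of retinal and other carbonyls, went the other way. Its brighter probe set was 12.36 and 12.09 in the stem and 11.04 and 11.13 in the enterocyte arrays, a fall of 2.20-fold (log2 difference -1.14 ± 0.12 SE, limma adjusted p = 0.00959); the other, also above background, gave 0.11 (adjusted p = 0.634 over all probe sets, limma), so the probe sets of this gene disagree. Dhrs3, which returns retinal to retinol, was 8.65 and 8.65 in the stem and 8.69 and 8.42 in the enterocyte arrays. The enterocyte arrays lay on either side of the stem arrays (-0.09 ± 0.12 SE). Dhrs7 also overlapped between the groups, and Dhrs2 was below background in both.

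Of 17 aldehyde dehydrogenases 8 were higher (47.1%, against 18.2% of all genes), 3 lower (17.6%, against 22.4%) and 6 did not pass. The median difference was 0.42. It was 0.19, with 7 higher and 4 lower, under mean centring, and -0.36, with 6 higher and 9 lower, under level-median centring, in which 77.2% of all genes were lower. Among the enzymes that make retinoic acid, Aldh1a1, a cytosolic retinal dehydrogenase, was 8.58 and 8.40 in the stem and 11.53 and 12.43 in the enterocyte arrays. It rose 11.2-fold (log2 difference 3.49 ± 0.36 SE, limma adjusted p = 0.00917), and its enterocyte replicates differed from each other more than its stem replicates did. Aldh1a7, a close relative, was 7.01 and 6.55 in the stem and 10.02 and 10.79 in the enterocyte arrays and rose 12.3-fold (log2 difference 3.62 ± 0.36 SE, limma adjusted p = 0.00832). In both genes enterocyte replicate 2 was the higher one; they are near copies, and how far their probe sets share signal was not tested. The retinal dehydrogenases Aldh1a2 and Aldh1a3 lay below background on all 4 arrays. Aldh1a2 was 4.11 and 4.11 in the stem and 4.21 and 4.22 in the enterocyte arrays, and Aldh1a3 between 5.05 and 5.38.

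Aldh1b1, a mitochondrial aldehyde dehydrogenase known as a marker of intestinal progenitor cells, was 13.54 and 13.29 in the stem and 11.34 and 10.93 in the enterocyte arrays. It showed the largest fall of the family, 4.85-fold (log2 difference -2.28 ± 0.20 SE, limma adjusted p = 0.00684), with no overlap. Goblet, enteroendocrine and Paneth cell markers moved in the same direction, as given above, and their part in this fall was not tested. Aldh7a1, of lysine breakdown, was 7.92 and 8.06 in the stem and 6.69 and 6.57 in the enterocyte arrays, a fall of 2.56-fold (log2 difference -1.36 ± 0.09 SE, limma adjusted p = 0.00461); its other probe sets lay below background. Aldh18a1, which begins proline synthesis, was 12.72 and 12.60 in the stem and 11.82 and 11.87 in the enterocyte arrays and fell 1.76-fold (log2 difference -0.81 ± 0.07 SE, limma adjusted p = 0.0067). Of its 5 probe sets, the 4 marked _x_at all fell, and the only one without that mark gave 0.02 (adjusted p = 0.802 over all probe sets, limma).

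Aldh4a1, which works in proline breakdown, was 5.80 and 6.47 in the stem and 7.76 and 7.57 in the enterocyte arrays. It rose 2.89-fold (log2 difference 1.53 ± 0.28 SE, limma adjusted p = 0.0277), with stem replicate 1 just below background and stem replicate 2 above it. Aldh3a2, the fatty aldehyde dehydrogenase of the endoplasmic reticulum, was 8.51 and 8.12 in the stem and 9.74 and 10.07 in the enterocyte arrays and rose 3.01-fold (log2 difference 1.59 ± 0.21 SE, limma adjusted p = 0.0143). Aldh3b1, which oxidises aldehydes from lipid peroxidation, was 6.25 and 6.28 in the stem and 7.90 and 7.80 in the enterocyte arrays and rose too (log2 difference 1.58 ± 0.06 SE, limma adjusted p = 0.00294). The replicates of Aldh3b1 lay closer together than those of Aldh3a2. Aldh1l1, the formyltetrahydrofolate dehydrogenase of folate metabolism, rose 2.61-fold (log2 difference 1.39 ± 0.06 SE, limma adjusted p = 0.00314). Its dimmest probe set, below background in both groups, did not pass (0.45, adjusted p = 0.0846 by limma). Aldh9a1, of carnitine synthesis, rose 1.68-fold (log2 difference 0.75 ± 0.06 SE, limma adjusted p = 0.00553). Aldh2, the mitochondrial enzyme that clears acetaldehyde, was 11.28 and 11.12 in the stem and 11.68 and 11.64 in the enterocyte arrays. This small rise of 1.37-fold (log2 difference 0.46 ± 0.08 SE, limma adjusted p = 0.027) lost its call with mean centring (0.23, adjusted p = 0.153 by limma) and with quantile normalization (0.28, adjusted p = 0.0749). The dimmer probe sets of Aldh2, also above background, gave 0.32 and 0.13 and did not pass (adjusted p = 0.301 and 0.158 over all probe sets, limma). Aldh16a1 and Aldh6a1, the latter of valine breakdown, were above background and overlapped between the groups, and Aldh3a1 and Aldh8a1 were below background in both.

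Of the 4 alcohol dehydrogenases 2 were higher (50%, against 18.2% of all genes) and 1 lower (25%, near 22.4%). The median difference was 0.33. It was 0.11, with 1 higher and 1 lower, under mean centring, and -0.44, with 1 and 2, under level-median centring. Adh4, the class II enzyme, which accepts retinol, was 5.05 and 5.48 in the stem and 8.98 and 8.94 in the enterocyte arrays. Both stem arrays lay below background, and Adh4 was at least 8.28-fold higher (log2 difference 3.69 ± 0.18 SE, limma adjusted p = 0.00341). The remaining differences were small. Adh1, the class I enzyme that oxidises ethanol, was 13.24 and 13.24 in the stem and 13.51 and 13.33 in the enterocyte arrays and did not pass (0.18 ± 0.09 SE, limma adjusted p = 0.211), though no array of one group reached those of the other; its deposited values in the stem arrays were identical. Adh7, the class IV retinol dehydrogenase, was 6.58 and 6.63 in the stem and 7.19 and 6.99 in the enterocyte arrays, and its rise of 1.40-fold (log2 difference 0.49 ± 0.10 SE, limma adjusted p = 0.0353) lost its call with mean centring (0.26, adjusted p = 0.161 by limma). Adh5, the class III enzyme that removes formaldehyde, was 12.13 and 12.11 in the stem and 11.68 and 11.76 in the enterocyte arrays and fell 1.32-fold (log2 difference -0.40 ± 0.06 SE, limma adjusted p = 0.0194). With each array centred on its own median the call of Adh5 was lost (-0.18, adjusted p = 0.172 by limma).

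Aldo-keto reductases had the smallest share of calls among the families, which lay near the 40.6% of all genes called in either direction. The difference between families was not tested. Of these 14 genes 4 were called higher (28.6%, against 18.2% of all genes) and 1 lower (7.14%, against 22.4%), while 9 missed the threshold. Their median of 0.19 became -0.03, with 3 higher and 2 lower, under mean centring and -0.58, with 2 higher and 10 lower, under level-median centring. Akr1b8, an aldose reductase-like enzyme, was 6.35 and 6.68 in the stem and 7.89 and 8.29 in the enterocyte arrays. It rose 2.96-fold (log2 difference 1.57 ± 0.21 SE, limma adjusted p = 0.0149), without overlap. Akr1c13, a hydroxysteroid and xenobiotic reductase, was 10.50 and 10.39 in the stem and 11.63 and 11.62 in the enterocyte arrays and rose 2.27-fold (log2 difference 1.18 ± 0.07 SE, limma adjusted p = 0.00394). Its near copy Akr1c12 was 10.08 and 9.86 in the stem and 10.49 and 10.62 in the enterocyte arrays, a rise of 1.50-fold (log2 difference 0.58 ± 0.11 SE, limma adjusted p = 0.0327); a probe set assigned to both genes gave 0.96 (adjusted p = 0.0055 over all probe sets, limma), and how the signal divides between them is uncertain. Akr1a1, the general aldehyde reductase, was 13.62 and 13.54 in the stem and 14.30 and 14.29 in the enterocyte arrays and rose 1.64-fold (log2 difference 0.71 ± 0.06 SE, limma adjusted p = 0.00655) on its brightest probe set, with the other 3 at 0.60 to 0.92; mean centring kept the call, and level-median centring gave -0.065.

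Akr7a5, which reduces aflatoxin aldehyde and succinic semialdehyde, was 12.00 and 11.90 in the stem and 11.51 and 11.54 in the enterocyte arrays. It fell 1.34-fold (log2 difference -0.42 ± 0.07 SE, limma adjusted p = 0.02) with no overlap, a call lost with each array centred on its own median (-0.20, adjusted p = 0.124 by limma). The dimmer probe set of Akr7a5, also above background, gave -0.36 and did not pass (adjusted p = 0.0561 over all probe sets, limma). Akr1c14, a hydroxysteroid dehydrogenase, was 8.21 and 8.15 in the stem and 7.89 and 8.34 in the enterocyte arrays, so that the enterocyte arrays lay on both sides of the stem arrays. Akr1e1 was above background without passing the test (0.35 ± 0.13 SE). Akr1b10 was called in neither direction, and Akr1c6, Akr1c18, Akr1c20, Akr1c21, Akr1cl and the bile acid synthesis enzyme Akr1d1 were below background in both groups.

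Of 9 carboxylesterases 4 were higher (44.4%, against 18.2% of all genes) and 2 lower (22.2%, near 22.4%), while 3 did not pass. The median difference was 0.66. It was 0.43, with 4 higher and 2 lower, under mean centring, and -0.12, with 3 and 4, under level-median centring. Ces2e, of the Ces2 group known for its activity in the intestine, was 7.76 and 7.74 in the stem and 11.22 and 11.07 in the enterocyte arrays. It rose 10.6-fold (log2 difference 3.40 ± 0.08 SE, limma adjusted p = 0.00261). Ces2a was 9.76 and 9.18 in the stem and 11.97 and 11.41 in the enterocyte arrays, a rise of 4.67-fold (log2 difference 2.22 ± 0.32 SE, limma adjusted p = 0.0173) in which replicate 1 was the higher one in each group. Ces2g pointed the same way without passing the test (0.66 ± 0.24 SE, limma adjusted p = 0.128), and none of its arrays overlapped. Ces2g was called higher with each array centred on its own median (0.88, adjusted p = 0.0224 by limma) and with quantile normalization (0.71, adjusted p = 0.0462).

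Of the Ces1 group, Ces1f was 8.01 and 8.30 in the stem and 11.19 and 11.21 in the enterocyte arrays and rose 8.27-fold (log2 difference 3.05 ± 0.12 SE, limma adjusted p = 0.00299) on a probe set marked _s_at. Ces1g, an esterase linked to triglyceride handling, was 5.22 and 5.64 in the stem and 6.74 and 6.42 in the enterocyte arrays. With the stem arrays below background it was at least 1.59-fold higher (log2 difference 1.15 ± 0.21 SE, limma adjusted p = 0.03). Against these, Ces1d, known as a triacylglycerol hydrolase, was 10.02 and 9.53 in the stem and 7.17 and 7.06 in the enterocyte arrays. It fell 6.33-fold (log2 difference -2.66 ± 0.20 SE, limma adjusted p = 0.00564), and all 3 of its probe sets were lower (log2 differences -2.66, -2.39 and -1.85). Ces1e was 9.39 and 9.06 in the stem and 7.65 and 7.83 in the enterocyte arrays and fell 2.79-fold (log2 difference -1.48 ± 0.16 SE, limma adjusted p = 0.00935). Lower signal of goblet, enteroendocrine and Paneth cell markers ran alongside these falls, as given above, and their part was not tested. Ces1c and Ces4a lay below background in both groups.

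**Figure D2:**
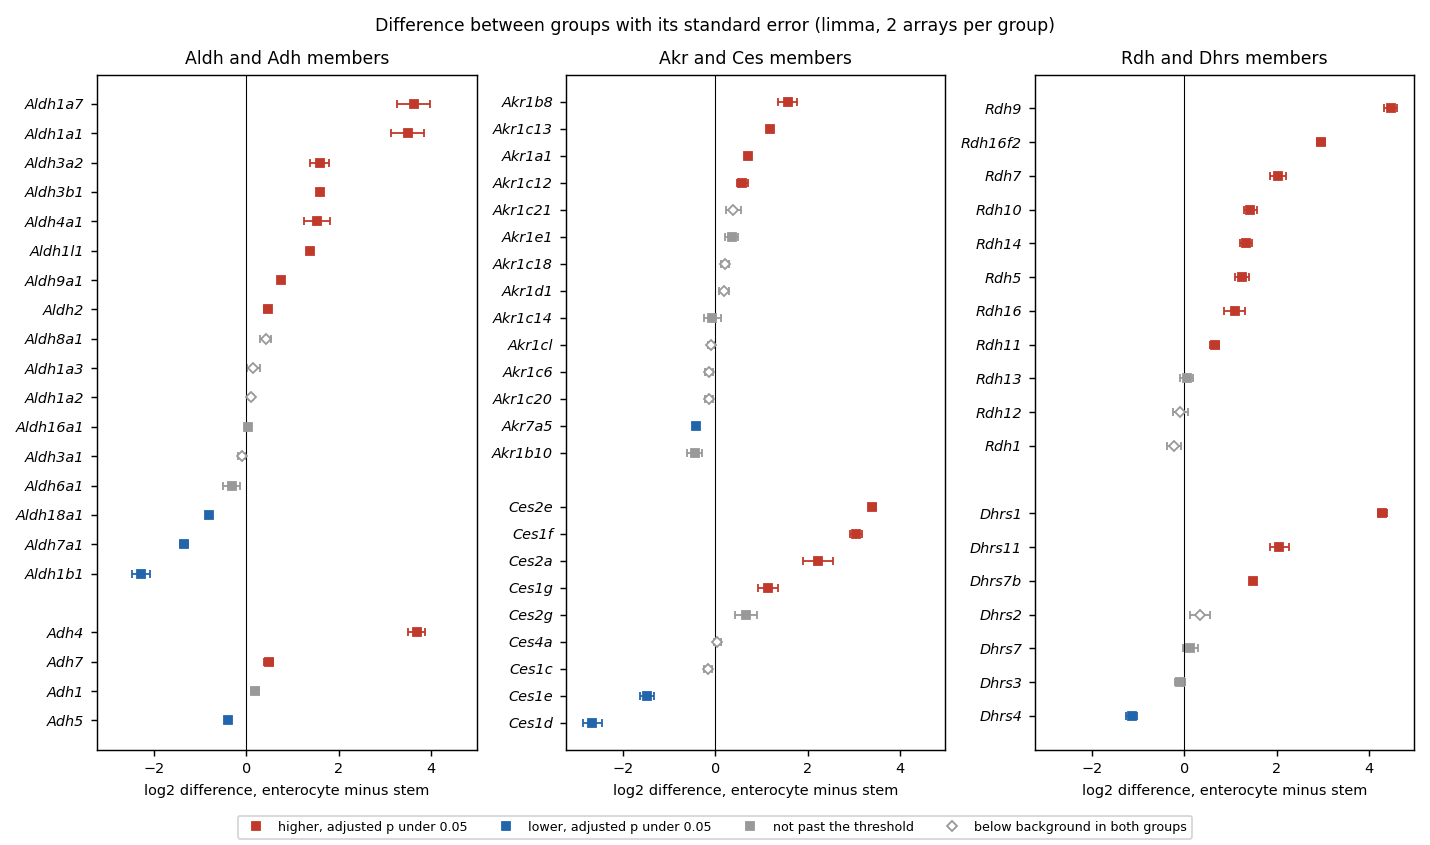
Log2 difference, enterocyte minus stem, of each gene (squares, with limma's SE as whiskers; 2 arrays per group), coloured by the call at an adjusted p under 0.05; open diamonds are genes below background in both groups. The largest rises are Rdh9 (4.47) and Dhrs1 (4.29), the largest falls Ces1d (-2.66) and Aldh1b1 (-2.28), and no Rdh gene is called lower in this fit (Rdh1 is under mean centring).

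Many of these genes lie beside their relatives, and neighbours did not always move together. In the RefSeq order of the Ces1 cluster on chromosome 8, counting protein-coding genes of these names with starts within 500 kb of each other, Ces1d and Ces1e, which fell, are followed directly by Ces1f and Ces1g, which rose. The counts by cluster cover few genes and stand beside the 18.2% of all genes called higher. In the Ces2 to Ces4 cluster, 2 of 4 measured genes rose and 0 fell (also 0 at an unadjusted p under 0.05). In the Rdh cluster on chromosome 10, 4 of 5 measured genes rose (Rdh9, Rdh16, Rdh16f2 and Rdh7), and Rdh1, at its end, was below background. The probe set of Rdh9 may detect related genes, and Rdh16 was only bounded at 1.04-fold or more. In the Adh cluster Adh4 (3.69) stands beside Adh5 (-0.40). In the Akr1c cluster Akr1c13 and Akr1c12 rose, while 4 of 8 measured genes were below background. Dhrs4, which fell on its brighter probe set, and Dhrs1, which rose, lie near each other on chromosome 14.

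**Figure D3:**
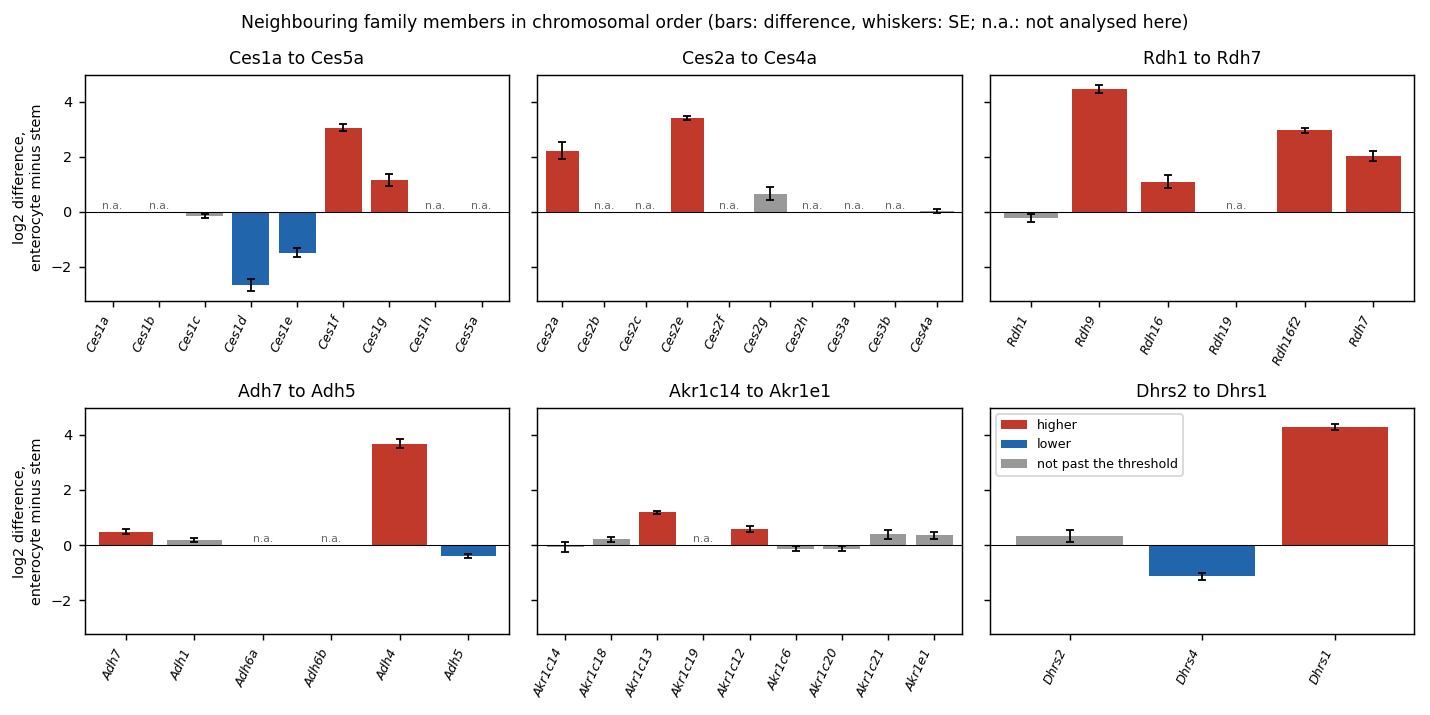
Log2 difference, enterocyte minus stem, of genes in 6 clusters in RefSeq chromosomal order (bars, with SE as whiskers; red higher, blue lower, grey not past the threshold; n.a. marks genes not analysed here). The Ces1 panel turns from falls (Ces1d -2.66, Ces1e -1.48) to rises (Ces1f 3.05, Ces1g 1.15) between neighbours, while the measured genes of the Rdh panel other than Rdh1 all rise.

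The sequences just before the annotated starts of 8 of these genes show how far such genes differ there. A promoter entry was matched by symbol for 53 of the 62 genes in the RefSeq table of build GRCm38.p6. The 250 bases before the start are printed 5′ to 3′ on the strand of the gene. Shown are genes of 1 cluster that moved in opposite directions (Ces1e and Ces1g, Dhrs4 and Dhrs1) and relatives that rose together (Rdh9 and Rdh16f2, Aldh1a1 and Aldh1a7). Dhrs4 fell on its brighter probe set only, and for Aldh1a1 the first of 2 entries is printed. Capitals mark matches, on either strand, to 6 short motifs: TATAAA, known as the TATA box, GTTAAT from the HNF1 site, CAAAGTC from the HNF4 site, AGGTCA from nuclear receptor sites, TTTATG from the CDX site and TGACNNNGC from the antioxidant response element.
Ces1e, chr8:93229620-93229869, minus strand: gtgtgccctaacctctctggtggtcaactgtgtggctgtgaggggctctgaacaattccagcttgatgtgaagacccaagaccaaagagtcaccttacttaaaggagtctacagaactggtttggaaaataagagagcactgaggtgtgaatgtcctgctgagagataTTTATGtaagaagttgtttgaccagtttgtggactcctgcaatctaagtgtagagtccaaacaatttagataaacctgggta
Ces1g, chr8:93337210-93337459, minus strand: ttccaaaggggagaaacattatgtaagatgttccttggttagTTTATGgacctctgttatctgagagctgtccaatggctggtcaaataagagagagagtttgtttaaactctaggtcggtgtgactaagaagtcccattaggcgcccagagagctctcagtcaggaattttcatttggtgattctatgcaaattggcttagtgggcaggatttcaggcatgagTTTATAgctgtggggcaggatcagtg
Dhrs4, chr14:55478508-55478757, plus strand: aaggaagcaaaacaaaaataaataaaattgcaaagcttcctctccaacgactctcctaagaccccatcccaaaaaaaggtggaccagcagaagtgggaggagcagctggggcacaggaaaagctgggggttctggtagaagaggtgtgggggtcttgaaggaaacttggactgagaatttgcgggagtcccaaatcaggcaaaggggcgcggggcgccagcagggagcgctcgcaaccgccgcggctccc
Dhrs1, chr14:55745685-55745934, minus strand: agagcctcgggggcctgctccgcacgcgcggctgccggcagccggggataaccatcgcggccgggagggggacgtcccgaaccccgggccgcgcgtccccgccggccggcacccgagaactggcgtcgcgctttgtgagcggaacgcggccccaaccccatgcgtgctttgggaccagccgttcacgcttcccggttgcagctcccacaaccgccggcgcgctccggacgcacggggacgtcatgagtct
Rdh9, chr10:127776155-127776404, plus strand: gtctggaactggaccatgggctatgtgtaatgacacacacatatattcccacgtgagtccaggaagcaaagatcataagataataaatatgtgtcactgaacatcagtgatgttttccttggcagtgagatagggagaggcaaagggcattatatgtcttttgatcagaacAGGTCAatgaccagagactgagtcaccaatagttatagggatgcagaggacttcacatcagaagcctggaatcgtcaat
Rdh16f2, chr10:127866226-127866475, plus strand: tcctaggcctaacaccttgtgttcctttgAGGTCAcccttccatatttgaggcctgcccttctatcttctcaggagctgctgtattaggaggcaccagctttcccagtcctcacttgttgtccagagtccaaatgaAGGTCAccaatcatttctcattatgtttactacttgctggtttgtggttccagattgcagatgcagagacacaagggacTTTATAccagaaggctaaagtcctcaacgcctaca
Aldh1a1, chr19:20492333-20492582, plus strand: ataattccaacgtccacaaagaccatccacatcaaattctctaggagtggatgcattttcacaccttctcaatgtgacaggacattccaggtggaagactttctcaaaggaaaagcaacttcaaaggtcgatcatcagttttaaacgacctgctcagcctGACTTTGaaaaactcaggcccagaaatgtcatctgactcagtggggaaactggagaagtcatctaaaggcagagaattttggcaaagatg
Aldh1a7, chr19:20727557-20727806, minus strand: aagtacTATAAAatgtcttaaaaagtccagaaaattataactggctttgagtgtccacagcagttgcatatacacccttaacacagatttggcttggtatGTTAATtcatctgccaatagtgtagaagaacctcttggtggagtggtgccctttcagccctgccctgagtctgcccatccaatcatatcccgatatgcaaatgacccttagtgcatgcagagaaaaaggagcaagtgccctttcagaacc

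In a global alignment Ces1e and Ces1g were identical at 46.9% of positions, Dhrs4 and Dhrs1 at 43.2%, Rdh9 and Rdh16f2 at 46.7%, and Aldh1a1 and Aldh1a7 at 50.9%. All pairings of these 8 sequences, mostly of unrelated genes, lay between 38.9% and 52.0%. Ces1g and Rdh16f2 held TATA box letters on the strand opposite to the gene (printed as TTTATA), beginning 26 and 35 bases before the start. Aldh1a7 held TATAAA on its own strand, beginning 244 bases before the start. Rdh9 held 1 nuclear receptor core and Rdh16f2 held 2. A CDX site stood in both Ces1e, which fell, and Ces1g, which rose. Among the 60 promoter entries of members, 23.3% held AGGTCA, 18.3% TTTATG, 15.0% TATAAA, 6.67% GTTAAT, 5.0% CAAAGTC and 6.67% the antioxidant letters. Over all 32851 entries these shares were 14.0%, 10.8%, 12.4%, 6.43%, 3.84% and 10.2%. A match is a description of the letters only.

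Genes that work beside these families were described from lists that hold none of the members; their shares are to be read against the 18.2% of all genes called higher and 22.4% called lower. In retinoid handling 7 of 22 genes were higher (31.8%) and 4 lower (18.2%, near that of all genes), with a median of 0.20. Mean centring lowers every difference by 0.23, which exceeds this median. Rbp2, the retinol carrier of the enterocyte, was 7.36 and 7.36 in the stem and 13.03 and 13.17 in the enterocyte arrays, a rise of 53.4-fold (log2 difference 5.74 ± 0.07 SE, limma adjusted p = 0.00225). Hsd17b6, an oxidoreductase of retinol and steroids, was 4.51 and 4.91 in the stem and 10.80 and 10.56 in the enterocyte arrays and at least 27.3-fold higher (log2 difference 5.97 ± 0.19 SE, limma adjusted p = 0.00261). Bco2, which cleaves carotenoids, rose 5.44-fold. Ttr, the carrier of thyroid hormone and of retinol-binding protein, fell 8.33-fold, the retinol-binding gene Rbp7 2.79-fold and the receptor gene Rxrb 2.78-fold, while the retinol esterifying gene Lrat did not pass (0.32 ± 0.40 SE) and Bco1, which makes retinal from beta-carotene, lay below background.

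Other enzymes that act on carbonyls, amines and related substrates were higher in 12 of 27 cases (44.4%) and lower in 2 (7.41%), with a median of 0.14. Under mean centring 10 were higher and 6 lower. Xdh, xanthine oxidoreductase, was 8.17 and 8.09 in the stem and 12.21 and 12.44 in the enterocyte arrays and rose 18.3-fold (log2 difference 4.19 ± 0.11 SE, limma adjusted p = 0.00261). The carbonyl reductase gene Cbr3 rose 8.17-fold and Maoa, monoamine oxidase, 4.59-fold; Glo1, which clears methylglyoxal, fell 1.54-fold on its brightest probe set, and Adhfe1, below background in both groups, by 0.50 on the log2 scale. Other esterases and lipases were higher in 17 of 33 cases (51.5%) and lower in 4 (12.1%), with a median of 0.81. Abhd3, a phospholipase, rose 24.9-fold, and Lipa, the lysosomal acid lipase, was 6.55 and 6.28 in the stem and 10.81 and 11.21 in the enterocyte arrays and rose 24.2-fold (log2 difference 4.60 ± 0.20 SE, limma adjusted p = 0.00317). The thioesterase gene Acot4 was at least 4.08-fold higher, and Ppt2, Bphl and Acot1 fell 2.33-fold, 2.17-fold and 1.82-fold.

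Regulators known to act on genes of these families were higher in 13 of 24 cases (54.2%) and lower in 3 (12.5%), with a median of 0.72. Creb3l3, a regulator of lipid genes, was 7.53 and 7.87 in the stem and 11.87 and 11.71 in the enterocyte arrays and rose 17.0-fold (log2 difference 4.09 ± 0.16 SE, limma adjusted p = 0.00277). Hnf4g, a nuclear receptor of the gut, rose 10.3-fold and the coactivator gene Ppargc1a 6.11-fold. The intestinal homeobox genes Cdx2 and Cdx1 fell 2.03-fold and 1.90-fold, though the dimmest probe set of Cdx2 gave 0.12. Keap1, the inhibitor of Nfe2l2, fell 1.52-fold on its brightest probe set, and its dimmest gave 1.53. The xenobiotic receptor genes Nr1i3 and Nr1i2 differed by 2.54 ± 0.09 SE and 0.98 ± 0.13 SE, and Hnf4a did not pass (0.21 ± 0.09 SE); these were named after their values were seen.

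**Figure D4:**
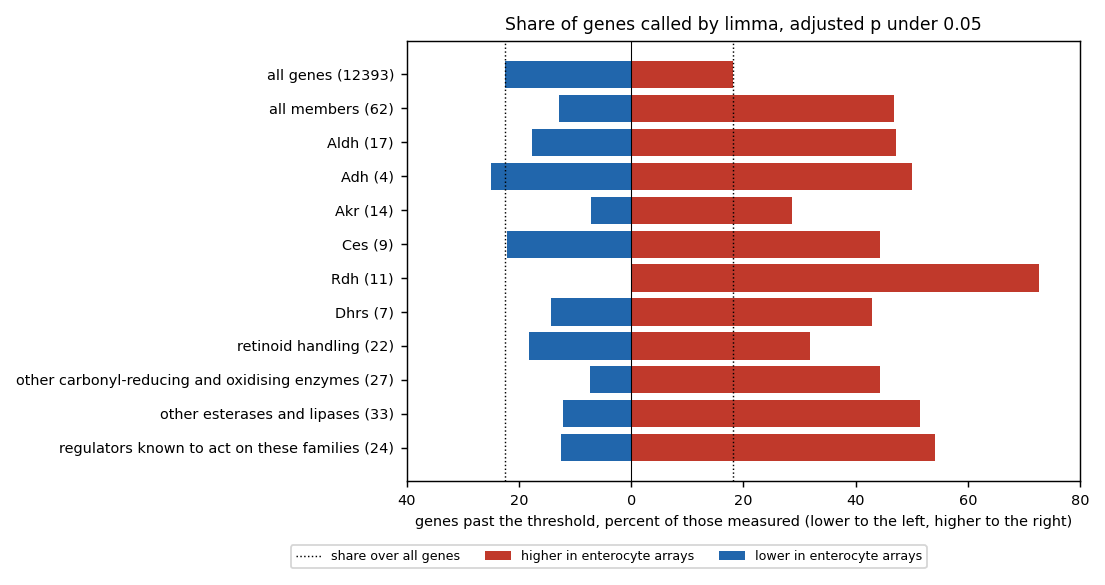
Percent of measured genes called higher (right, red) and lower (left, blue) in the enterocyte arrays by limma, for all genes, all members, each family and the accompanying lists, with the number measured in brackets; dotted lines are the shares over all genes (18.2% higher, 22.4% lower). Rdh genes reach 72.7% higher with 0 lower in this fit, and Akr genes are nearest to the share of all genes at 28.6% higher.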

How the data were processed

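The authors deposited 1 normalized intensity for every probe set and array, on a linear scale (7.93 to 41703.8; array medians 102.4 to 110.6). Per the submitters' processing notes RMA was used; its version and the scaling between arrays are not stated in those sources. The design assumed log2 values, so the deposited intensities were converted to log2 without adding a pseudocount. All 4 columns belong to a sample (0 without).

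Of 22690 probe sets, 64 were controls; the platform annotation gave exactly 1 symbol for 20380 and several for 691, and 1555 were not listed. The brightest probe set by mean level stood for each of 12393 genes (19 members had several). Gene identifiers of all 62 members matched the RefSeq table of GRCm38.p6. limma 3.58.1 (R 4.3.3; lmFit, eBayes) gave two-sided p-values, adjusted by Benjamini-Hochberg across the genes tested, with calls at 0.05 (2 residual and 1.23 prior degrees of freedom). No low values were filtered. Both stem values were identical in 3 members (1268 genes) and both enterocyte values in 2 (1048 genes), which lowers the spread seen. An exact permutation test of 2 against 2 arrays cannot go below p = 0.333 and was not used. The number of arrays limits the precision.

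Members and lists were chosen with earlier results of these data known. Genes given with full values were, per family, up to 5 rises and 4 falls past the threshold, plus a fixed set, and in each accompanying list up to 3 in each direction. Steps were tested on simulated data. Alternatives covered the replicate block, each array left out, scaling, the variance model, the probe set used, low values and a pseudocount of 16. Alignments used Biopython 1.88.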

Additional observations from a re-analysis of the deposited data

How the results depend on the processing

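The number of members called higher stayed within 1.5 times of 29 in every setting other than leaving out an array (21 to 37), and that of members called lower, 8 in the reported fit, was 31 with centring on the median of the reference genes, 5 with the median over probe sets, 5 with the probe set of the lowest mean and 4 without _x_at, _s_at and _a_at probe sets, and 6 to 12 in the others. With 1 array left out, members higher ran from 0 to 9 and lower from 0 to 0, genes higher from 0 to 663 and lower from 0 to 1058, against 2257 and 2779. Genes higher were 3574 (2458 lower) with each array centred on its median, which moved the median of all genes to 0.22. Centring on the mean level of the reference genes gave 1928 higher and 4090 lower, and centring on their median deviation, added after seeing the data, 1785 and 4436. Centring on their median level, which sets Pgk1 in the stem against Ywhaz in the enterocyte arrays, gave 1173 and 9567. Of the called members it reversed Adh7 (-0.29), Akr1a1 (-0.065), Akr1c12 (-0.19), Aldh2 (-0.32), Aldh9a1 (-0.032) and Rdh11 (-0.12). It turned others that were not called before, among them Adh1 (-0.59), Aldh1a2 (-0.68) and Aldh1a3 (-0.63). Reversed means a change of sign here, and in no setting did a called member pass the threshold in the opposite direction. The probe set of the lowest mean reversed Aldh7a1 (0.081), Dhrs4 (0.11), Dhrs7b (-0.046), Rdh14 (-0.42), Cdx2 (0.12), Glo1 (0.10) and Keap1 (1.53). The mean over probe sets reversed Glo1 (0.094) and Keap1 (0.47), the median over them Glo1 (0.095), Keap1 (0.47) and Aldh7a1 (0.14), and leaving out _x_at, _s_at and _a_at probe sets Glo1 (0.10) and Aldh18a1 (0.019). The causes of the other changes were not tested. The replicate block gave 26 members higher and 6 lower, beside 16.2% and 20.6% of all genes. It ended the calls of Adh5, Adh7, Akr1c12, Akr7a5, Aldh4a1 and Ces1g (adjusted p 0.0528 to 0.0767 by limma) and added that of Ces2g (0.0339). Deviations of same-numbered arrays correlated at 0.05 across genes, with only 2 pairs, so the numbers were not taken to pair the samples.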

Other observations

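A probe set assigned to both Ces3a and Ces3b, in the Ces2 to Ces4 cluster, averaged 4.10 in the stem and 5.32 in the enterocyte arrays (log2 difference 1.22, adjusted p = 0.00596 over all probe sets by limma), with both groups below the background level. A probe set assigned to both Rdh5 and Bloc1s1 averaged 10.13 and 9.89 (-0.24, adjusted p = 0.0611), against 1.25 for the probe set of Rdh5 alone. The dimmer probe set of Rdh11 gave 1.42 (adjusted p = 0.0245), against 0.66 for the brighter one. Among the 19 members with several probe sets, the probe sets differed in sign in 7, and in 0 did probe sets past the threshold over all probe sets point in opposite directions.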
